A study of Mus musculus with 16 samples.

Results

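The 10 genes described here encode p53 itself and proteins that carry the signal of a faulty or delayed division, or of broken DNA, to p53. They were chosen by name and not by their measured levels, though with earlier results of these data known. The choice was from 51912 genes listed in the counts, and each was listed and counted in every mouse. They are *Trp53*, *Trp53bp1*, *Usp28*, *Mdm4*, *Pidd1*, *Cradd*, *Casp2*, *Plk4*, *Atm* and *Chek2*. None of the 10 was called in any comparison of the genotypes. At most 0.16% of the 51912 genes were called in any comparison by the main test, so 0 of 10 cannot be set apart from that share. The 95% intervals of 10 of 10 genes in each comparison with ctrl and of 9 of 10 in cKO versus dKO lay within a 2-fold change. In the same libraries the p53 target genes *Cdkn1a*, *Ccng1* and *Eda2r* were higher in cKO, where *Knl1* alone is deleted, than in ctrl or in dKO. *Mdm2*, also a p53 target gene, was not called.

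p53 is a transcription factor that is made and destroyed continuously, and its activity is mainly set by how long the protein lasts. MDM2 and its relative MDM4 hold it in check. After an overlong mitosis, 53BP1 and the deubiquitinase USP28 form a complex with p53 that stabilizes it. Extra centrosomes activate the PIDDosome, in which PIDD1 and CRADD activate caspase 2, which cleaves MDM2. DNA double strand breaks activate the kinases ATM and CHK2, which phosphorylate p53 and its inhibitors. Many of these steps act on proteins, which RNA-seq does not measure.

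The E15.5 cortex of 15 mice was measured by UMI RNA-seq (Click-seq), in which copies of one cDNA made by PCR are counted once. In cKO (4 mice), *hGFAP-Cre* removes *Knl1*, a kinetochore scaffold of the spindle assembly checkpoint that the labels call Casc5, from cortical neural progenitor cells (NPCs). In dKO (4 mice), *Knl1* and *Trp53* are both deleted conditionally with the same Cre. The 7 ctrl mice comprised 5 with a wild-type Casc5 genotype and 2 heterozygous mice, T4 and T5. Their Cre status and the *Trp53* alleles of the ctrl and cKO mice are not given in the labels, and the mice were of mixed background. Whole cortex also holds cells that this Cre does not recombine, such as interneurons, microglia and vessel cells, and the values are averages over all of them.

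The libraries fell into 4 litters and 3 batches, as the labels name them. Litter 1 held ctrl mice 2 and 6 and cKO mice 5 and 7. Litter 2 held ctrl mice S1 and S3 and cKO mouse S2. Litter 3 held ctrl mice T3, T4 and T5 and dKO mice T2 and T8, and litter 4 held cKO mouse F3 and dKO mice F1 and F7. All 4 dKO mice were in batch 3, together with litter 3 and cKO mouse F3. Ctrl mouse S1 was the only one of batch 2, and the other mice were in batch 1.

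The total was 399832 to 3266227 counts per ctrl mouse, 4178461 to 8800987 per cKO mouse and 552186 to 5396803 per dKO mouse. Before TMM scaling, 3 counts were 7.503 CPM (counts scaled to 1000000 per mouse) in the shallowest mouse and 0.341 CPM in the deepest, limits that cover counting error only. *Knl1* was at 48.7 to 80.0 CPM in ctrl, 50.0 to 80.4 CPM in cKO and 33.4 to 58.2 CPM in dKO. These ranges overlapped, and a count over a whole gene does not check the deletion of a few exons. The libraries of litter 4 and the shallow libraries held the highest shares of reads outside genes or aligned to several places, up to 10.9% and 29.3%. Of progenitor markers, *Sox2* was at 0 in all 15 mice, and *Eomes*, of intermediate progenitors, was called lower in cKO than in ctrl. The summed interneuron markers were at 323 to 707 CPM in ctrl, 603 to 769 CPM in cKO and 468 to 682 CPM in dKO, and *Gad1* among them was called higher in cKO than in ctrl. Blood markers were at 8.47 to 21.8 CPM in ctrl, 16.8 to 20.9 CPM in cKO and 22.2 to 30.5 CPM in dKO, and *Hba-a2* was called higher in dKO than in ctrl. The part of these shifts in the results below was not tested.

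*Trp53* (ENSMUSG00000059552, chromosome 11, 69580359 to 69591873, plus strand of GRCm38) encodes p53. Because p53 binds a known DNA sequence, the start regions of *Trp53* and of the p53 target genes were searched on both strands for the p53 half-site, a degenerate 10-base consensus. The windows run from 250 bases before to 50 bases after each RefSeq start on GRCm38.p6. Of the 10 genes, *Trp53* alone held a half-site, whose first base lies 75 bases before its start. Each stretch is shown 5′ to 3′ on the strand of its gene, with half-sites in capitals, to show what a match looks like in *Trp53* beside the target genes.
*Trp53*, chr11:69580259-69580318, plus strand: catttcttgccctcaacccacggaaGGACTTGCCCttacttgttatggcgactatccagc
*Cdkn1a*, chr17:29090881-29090962, plus strand: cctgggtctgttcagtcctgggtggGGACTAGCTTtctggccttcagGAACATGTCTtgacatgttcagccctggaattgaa
*Ccng1*, chr11:40755437-40755496, minus strand: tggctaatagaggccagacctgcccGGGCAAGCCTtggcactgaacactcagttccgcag
*Mdm2*, chr10:117710910-117710969, minus strand: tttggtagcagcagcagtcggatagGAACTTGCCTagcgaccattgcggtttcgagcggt
The *Cdkn1a* window shown held a pair of half-sites close enough to form a full site, which 0.0731% of 32851 windows did. Another window, at a start further along *Cdkn1a*, held no half-site. A single half-site was in 8.36% of all windows, so 1 of 10 genes is near this share, although *Mdm4* had more than 1 window. No half-site was found in the window of *Eda2r*. The hexamers TTTGAA and TTCGAA, the core of the cell cycle homology region of G2 and mitosis genes, were in none of the members' windows on either strand and in 19.2% of all windows. These matches describe letters in a window, not binding.

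In ctrl, *Trp53* was at 15.6 CPM in the lowest mouse, 28.0 CPM in the median and 47.0 CPM in the highest. *Trp53* in cKO mice 5, 7, S2 and F3 stood at 24.0, 33.3, 30.4 and 25.7 CPM. The dKO mice T2, T8, F1 and F7 had 24.9, 32.3, 23.5 and 19.8 CPM. All cKO and dKO mice lay within the range of ctrl. The log fold change, on the log2 scale here and below, was −0.15 in cKO versus ctrl (standard error, SE, 0.19). It was −0.36 in dKO versus ctrl (SE 0.22) and 0.26 in cKO versus dKO (SE 0.20). The FDR of edgeR was 1 in each of these 3 tests, as it was for every other member in these comparisons. In bulk tissue, fewer cells of a type and less RNA per cell cannot be told apart.

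Among ctrl mice, *Trp53* differed between batches 1 and 3, which share no litter, so batch and litter cannot be told apart. Genotype also differed, since the ctrl mice of batch 1 were all Casc5 wild type and the lower values of batch 3 were those of the heterozygous mice T4 and T5. The 3 ctrl mice of batch 1 were at 31.7, 41.0 and 47.0 CPM, the mouse of batch 2 was at 25.5 CPM, and the 3 of batch 3 were at 15.6 (T5), 24.5 (T4) and 28.0 CPM (T3). The ctrl mice of batches 1 and 3 did not overlap, although those of batch 3 rest on only 45 counts in all (7, 26 and 12). Beside ctrl mice of batch 3 alone, the difference of dKO was no longer negative, at 0.06 (SE 0.32). With litter as a covariate, where only litter 3 holds both ctrl and dKO mice, this difference was 0.35 (SE 0.36). Within batch 1, cKO was below ctrl by a log fold change of −0.37 (SE 0.22, FDR 1). The 95% interval of dKO versus ctrl allowed a fall of up to 42.4% and a rise of up to 5.96%, and no reduction of *Trp53* counts in whole dKO cortex passed the FDR. The size of the difference depended on the mice used. Against wild-type ctrl mice only, it was −0.50 (SE 0.22, interval −0.94 to −0.06, FDR 1), without dKO mouse T8 it was −0.49, and without ctrl mouse T5 it was −0.43. A count over the gene does not separate the exons between the loxP sites from the rest, and it does not check the deletion.

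**Figure D1:**
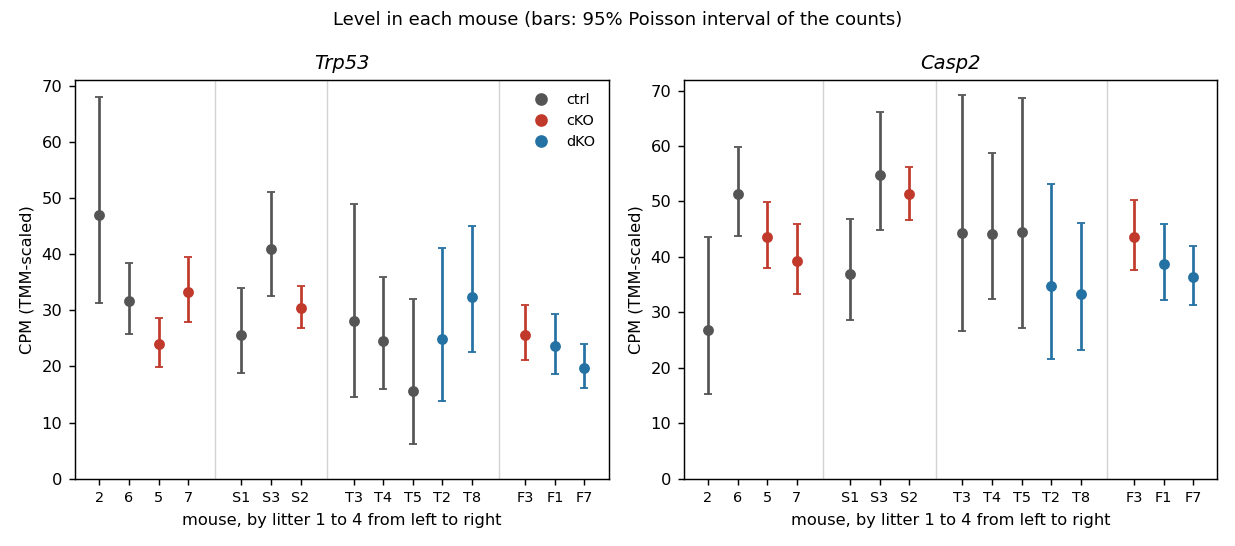
CPM of *Trp53* (left) and *Casp2* (right) in each mouse, on axes that start at 0, ordered by litter with ctrl in grey, cKO in red and dKO in blue; bars are 95% Poisson intervals of the counts. *Trp53* in ctrl reaches 47.0 CPM in litter 1 and 15.6 CPM in litter 3, while *Casp2* is at 39.3 CPM or above in the 4 cKO mice and at 38.6 CPM or below in the 4 dKO mice.

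Over the 10 genes, the median log fold change was −0.00 in cKO versus ctrl (from −0.15 to 0.21), −0.08 in dKO versus ctrl (from −0.36 to 0.08) and 0.20 in cKO versus dKO (from −0.08 to 0.34). Over all genes with 10 or more counts it was 0.03, 0.03 and 0.02. Of the 10 genes, 0 were called in each comparison (edgeR likelihood ratio test, FDR below 0.05), against 0.16%, 0.0501% and 0.052% of the 51912 genes tested. None had an unadjusted p below 0.05 either, against 10.2%, 6.88% and 6.62% of the genes with 10 or more counts. The quasi-likelihood test of edgeR called 0 members in each comparison, with 0, 0 and 2 at an unadjusted p below 0.05, and DESeq2 called 0, with none at that p. The comparisons share mice and are not independent of one another.

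The 95% intervals (1.96 SE on either side) bound the changes these data allow. In cKO versus ctrl and in dKO versus ctrl, the interval of each of the 10 genes lay within a 2-fold change in either direction. In cKO versus dKO this held for 9 of 10, the exception being *Pidd1*, whose interval reached a rise of 2.16-fold. In the dKO comparisons the bound depended on the mice and the fit used, and the part of batch in this was not tested. Among mice of batch 3 alone, which are fewer, 7 of 10 intervals lay within 2-fold in each of these comparisons. In dKO versus ctrl, 7 of 10 did without dKO mouse T8, and 6 of 10 did with litter as a covariate. For cKO versus ctrl, 9 of 10 did in batch 1 alone and 10 of 10 with litter as a covariate.

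The p53 target genes *Cdkn1a*, *Ccng1* and *Eda2r* differed from these flat levels, and *Mdm2*, also a target and described below, did not. The study had already reported the former as higher in cKO than in ctrl, and as not significant in dKO versus ctrl, from the same counts. Their pattern here is therefore not independent of that report. For *Eda2r* the study also reported the rise in cKO, and a level similar to ctrl in dKO, by droplet digital RT-PCR. *Cdkn1a* encodes the cell cycle inhibitor p21, *Ccng1* encodes cyclin G1, and *Eda2r* encodes a death receptor. In cKO versus ctrl their log fold changes were 1.70 (SE 0.38), 0.86 (SE 0.22) and 2.69 (SE 0.43). In cKO versus dKO they were 2.01 (SE 0.40), 1.31 (SE 0.22) and 3.25 (SE 0.49). All 6 passed the FDR of 0.05. In dKO versus ctrl they were −0.26, −0.46 and −0.38, and none passed.

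**Figure D2:**
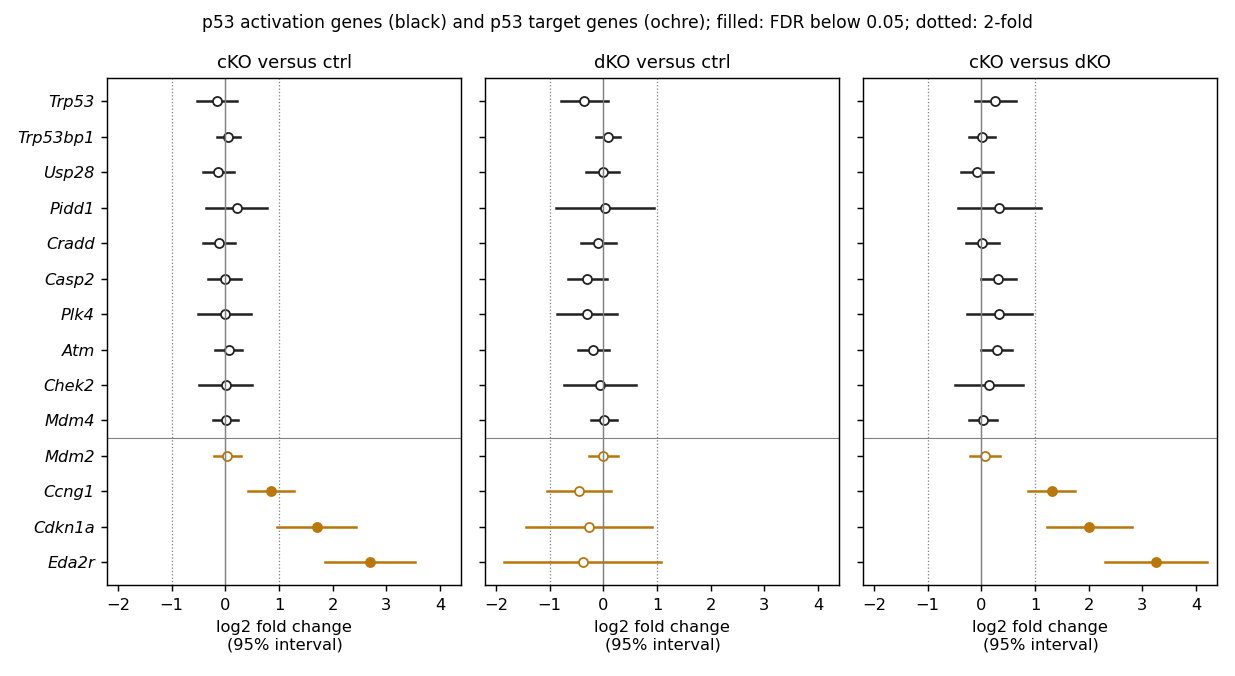
Log2 fold change with its 95% interval (1.96 SE) for the 10 p53 activation genes (black) and 4 p53 target genes (ochre) in the 3 comparisons; filled points passed an FDR of 0.05 and dotted lines mark a 2-fold change. The 10 genes span −0.15 to 0.21 in cKO versus ctrl, where *Eda2r* is at 2.69 and *Mdm2*, also a target, at 0.04.

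*Trp53bp1* (ENSMUSG00000043909, chromosome 2, 121193281 to 121271407, minus strand) encodes 53BP1, which joins p53 to USP28 and also guides the repair of double strand breaks. It was the most highly counted member, at 292 CPM in the lowest ctrl mouse, 310.2 CPM in the median and 339 CPM in the highest. The levels in cKO mice 5, 7, S2 and F3 were 310.0, 332, 348 and 315 CPM. Levels in dKO mice T2, T8, F1 and F7 were 333, 321, 335 and 321 CPM. The 3 groups overlapped over a narrow range, and the log fold changes were 0.06 (SE 0.11) in cKO versus ctrl, 0.08 (SE 0.11) in dKO versus ctrl and 0.01 (SE 0.12) in cKO versus dKO. For *Trp53bp1* in cKO the interval allowed a fall of up to 10.1% or a rise of up to 20.1%. Its 3′ part overlaps *Tubgcp4* on the opposite strand, over 15.0% of its exon bases.

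*Usp28* (ENSMUSG00000032267, chromosome 9, 48985375 to 49042517, plus strand) encodes the deubiquitinase of the same complex. In ctrl it was at 45.2, 55.4 and 75.6 CPM in the lowest, the median and the highest mouse. *Usp28* was at 46.5, 48.5, 56.5 and 46.1 CPM in cKO mice 5, 7, S2 and F3. In dKO mice T2, T8, F1 and F7 it was at 64.7, 53.6, 51.0 and 50.1 CPM. All 8 mutant mice fell within the range of ctrl, whose highest value, in mouse T5, rests on 34 counts. The log fold changes were −0.13 (SE 0.14), −0.01 (SE 0.16) and −0.08 (SE 0.15) in the order used above. In cKO its interval allowed a fall of up to 24.8% or a rise of up to 11.0%.

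*Mdm4* (ENSMUSG00000054387, chromosome 1, 132959484 to 133030561, minus strand) encodes MDM4, which binds p53 and blocks its activity. The lowest, median and highest ctrl mice were at 127, 165 and 178 CPM. In cKO mice 5, 7, S2 and F3 *Mdm4* was at 163, 163, 181 and 136 CPM. Levels in dKO mice T2, T8, F1 and F7 were 158, 167, 160.0 and 152 CPM. The group means of 158, 161 and 159 CPM lay closer together than the mice of any group. The log fold changes were 0.00 (SE 0.12), 0.00 (SE 0.12) and 0.03 (SE 0.14). Within batch 3, where F3 is the only cKO mouse and is assumed to vary like the others, cKO versus dKO was −0.21 (SE 0.23).

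*Mdm2* encodes the ubiquitin ligase that marks p53 for destruction, and it is itself a p53 target gene. It was not called, with log fold changes of 0.04 (SE 0.13), −0.00 (SE 0.14) and 0.07 (SE 0.14). The levels of *Mdm2* in cKO mice 5, 7, S2 and F3 were 84.7, 79.3, 85.8 and 69.1 CPM, all within the 68.7 to 86.7 CPM of ctrl. The log2 ratio of *Mdm2* to *Mdm4* was −1.02 ± 0.23 (SD, n = 7) in ctrl, −1.001 ± 0.06 (n = 4) in cKO and −1.03 ± 0.10 (n = 4) in dKO. The differences were 0.02, −0.02 and 0.03, with two-sided exact permutation p of 0.788, 0.958 and 0.60 and adjusted p of 0.958 over the 3 tests. No shift in the balance of these inhibitors' transcripts was detectable.

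The PIDDosome genes were read at unequal depth. *Pidd1* (ENSMUSG00000025507, chromosome 7, 141438113 to 141444025, minus strand) encodes its scaffold and was the least counted member. In ctrl it was at 1.88, 6.52 and 15.6 CPM in the lowest, the median and the highest mouse, and the lowest mouse, T4, had 2 counts. Cortices of cKO mice 5, 7, S2 and F3 held *Pidd1* at 5.89, 9.75, 8.31 and 7.96 CPM. Those of dKO mice T2, T8, F1 and F7 held it at 11.6, 11.1, 6.34 and 2.13 CPM. The dKO mice of litter 3 were high and F7 of litter 4 was low, with 11 counts, and all groups overlapped. The log fold changes were 0.21 (SE 0.29), 0.02 (SE 0.47) and 0.34 (SE 0.40). With litter as a covariate, only litter 4 informs cKO versus dKO, with cKO mouse F3 (35 counts) against F1 and F7 (21 and 11). *Pidd1* in cKO versus dKO was then 1.02, a value that rests on 1 cKO mouse. Without the mice of litter 4 it was −0.52 (SE 0.42), so its direction depended on that litter.

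*Cradd* (ENSMUSG00000045867, chromosome 10, 95174746 to 95324133, minus strand) encodes the adaptor between PIDD1 and caspase 2. The lowest, median and highest ctrl mice were at 50.0, 64.5 and 84.8 CPM. In cKO mice 5, 7, S2 and F3 *Cradd* was at 69.1, 61.8, 71.3 and 53.6 CPM, and in dKO mice T2, T8, F1 and F7 at 81.2, 62.8, 59.5 and 61.7 CPM. The mutant mice lay within the range of ctrl, and T2 stood above the other dKO mice. The log fold changes were −0.12 (SE 0.15), −0.09 (SE 0.17) and 0.01 (SE 0.16). With batch as a covariate, *Cradd* in cKO versus ctrl was −0.26 (SE 0.14, interval −0.53 to 0.01, FDR 1).

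*Casp2* (ENSMUSG00000029863, chromosome 6, 42264985 to 42282508, plus strand) encodes caspase 2. In ctrl it was at 26.9, 44.4 and 54.8 CPM in the lowest, the median and the highest mouse. The levels of *Casp2* in cKO mice 5, 7, S2 and F3 were 43.7, 39.3, 51.3 and 43.6 CPM. In dKO mice T2, T8, F1 and F7 it was at 34.8, 33.3, 38.6 and 36.3 CPM. Every cKO mouse was above every dKO mouse, though the gap between 39.3 and 38.6 CPM was smaller than the counting error of either, and both groups overlapped with ctrl. The log fold change in cKO versus dKO was 0.32 (SE 0.16, 95% interval −0.00 to 0.64, FDR 1). With no overlap, the two-sided exact permutation p of 4 against 4 mice is always 0.0286, so it adds nothing to the lack of overlap. Without adjustment, that p was below 0.05 for 1 of 10 genes in this comparison and for 0 in each comparison with ctrl. *Casp2* alone among the members (1 of 10) had cKO and dKO mice that did not overlap, against 3.72% of the genes with 10 or more counts (1.25% in cKO versus ctrl and 0.668% in dKO versus ctrl, where 0 of 10 genes did not overlap), and 1 gene of 10 is too few to set apart from that share. Because these mice did not overlap, no part of them could give the other direction. Litter 4 and batch 3 both hold F3 as their only cKO mouse. The difference of cKO and dKO was 0.22 between the group means of litter 4 and 0.29 (SE 0.26) in batch 3 alone. In dKO versus ctrl *Casp2* was −0.30 (SE 0.18), and within batch 3 it was −0.30 (SE 0.25), with the 3 ctrl mice there at 44.2 to 44.5 CPM. In cKO versus ctrl it was −0.01 (SE 0.16).

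*Plk4* (ENSMUSG00000025758, chromosome 3, 40800019 to 40816883, plus strand) encodes the kinase that starts centriole duplication in dividing cells. The lowest, median and highest ctrl mice were at 8.89, 21.5 and 32.7 CPM. *Plk4* was at 16.3, 20.8, 30.0 and 14.6 CPM in cKO mice 5, 7, S2 and F3. Levels in dKO mice T2, T8, F1 and F7 were 3.32, 25.9, 19.3 and 14.2 CPM, where the low value of T2 is 2 counts. The groups overlapped widely, and the log fold changes were −0.01 (SE 0.25), −0.31 (SE 0.29) and 0.34 (SE 0.31). Within batch 1, cKO versus ctrl was 0.42 (SE 0.30), and *Plk4* was higher in cKO in litter 1 (0.39) and litter 2 (0.32). Without S2, the cKO mouse with most *Plk4*, cKO versus ctrl was −0.28. Summed markers of dividing cells were at 301 to 668 CPM in ctrl, 369 to 546 CPM in cKO and 339 to 605 CPM in dKO, and their part in the levels of *Plk4* was not tested.

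*Atm* (ENSMUSG00000034218, chromosome 9, 53439149 to 53536740, minus strand) encodes the kinase that double strand breaks activate. In ctrl it was at 62.1, 74.7 and 88.0 CPM in the lowest, the median and the highest mouse. In cKO mice 5, 7, S2 and F3 *Atm* was at 76.6, 85.8, 88.2 and 73.6 CPM. In dKO mice T2, T8, F1 and F7 it was at 68.0, 57.3, 75.8 and 65.8 CPM. Of the cKO mice, 5 and 7 were above the median of ctrl, S2 was just above its highest mouse and F3 was just below its median. Among dKO mice only F1 overlapped with cKO, and T8 was below every ctrl mouse. The log fold change of *Atm* in cKO versus dKO was 0.28 (SE 0.15, 95% interval −0.01 to 0.57, FDR 1). It was 0.15 (SE 0.26) in batch 3 and 0.06 between the group means of litter 4. In cKO versus ctrl it was 0.06 (SE 0.13), and in dKO versus ctrl −0.19 (SE 0.15).

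*Chek2* (ENSMUSG00000029521, chromosome 5, 110839979 to 110874145, plus strand) encodes the kinase CHK2 downstream of ATM. The lowest, median and highest ctrl mice were at 4.67, 10.4 and 16.4 CPM, with 2 to 34 counts. The levels of *Chek2* in cKO mice 5, 7, S2 and F3 were 11.2, 13.8, 14.7 and 8.18 CPM, and those in dKO mice T2, T8, F1 and F7 were 8.29, 22.2, 9.96 and 6.79 CPM. T8 was above all other mice, and the groups overlapped. The log fold changes were 0.01 (SE 0.25), −0.06 (SE 0.34) and 0.14 (SE 0.32). With litter as a covariate, only litter 3 informs dKO versus ctrl. It had 5 and 24 counts of *Chek2* in T2 and T8 and 2, 11 and 3 in T3, T4 and T5. *Chek2* in dKO versus ctrl was then 1.04 (SE 0.53, interval −0.01 to 2.08, FDR 1), and it was 0.49 (SE 0.53) in batch 3 alone.

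**Figure D3:**
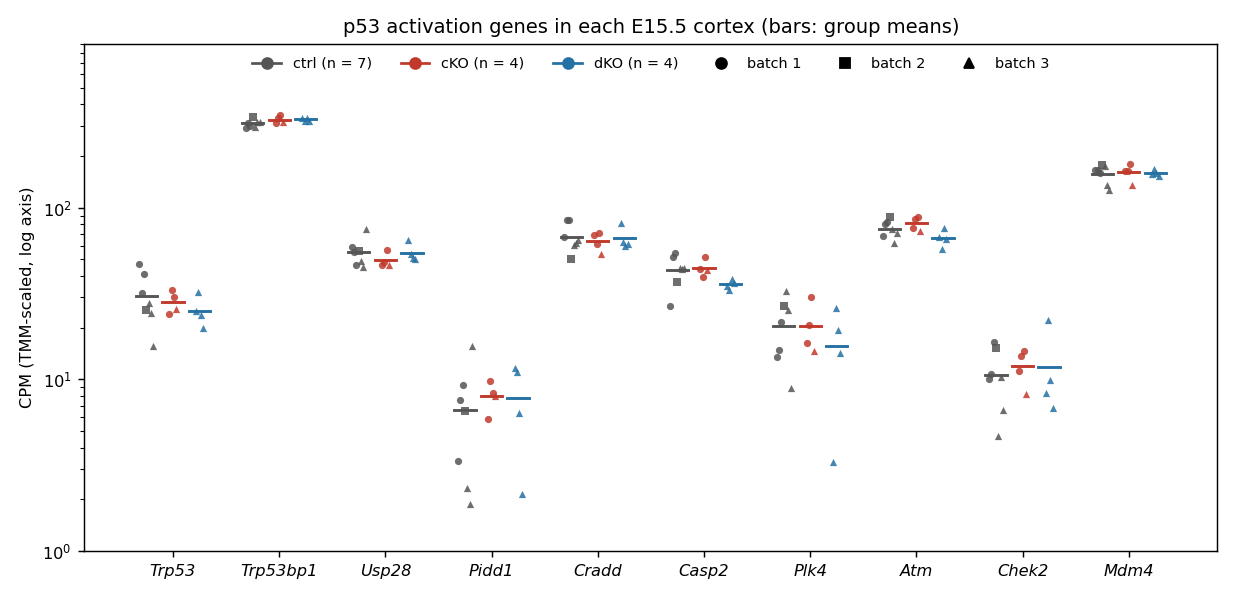
CPM of the 10 genes in each of 15 mice on a log axis, with ctrl in grey, cKO in red and dKO in blue, batches as circles, squares and triangles, and horizontal lines at the group means. The group means of *Trp53bp1* are at 309.9 to 327 CPM and those of *Pidd1* at 6.64 to 7.98 CPM, and the groups overlap in each gene except *Casp2* between cKO and dKO.

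In cKO versus dKO, 9 of the 10 log fold changes were positive, with *Usp28* the exception, against 5 of 10 in cKO versus ctrl and 3 of 10 in dKO versus ctrl. The count rested in part on values near 0 (0.01 for *Trp53bp1* and *Cradd*, 0.03 for *Mdm4*). It was 6 of 10 with RLE size factors, with DESeq2, under filterByExpr or without F7, and 5 of 10 without S2. The excess was present neither within litter 4 nor without it. In litter 4, which holds both genotypes with F3 as its only cKO mouse, 4 of 10 genes were higher in cKO. Without the mice of litter 4, 4 of 10 were as well. In batch 3 alone 4 of 10 were, and *Trp53bp1*, *Mdm4*, *Cradd*, *Plk4* and *Chek2* changed sign. Among litters with ctrl mice, 6 and 8 of 10 genes were higher in cKO in litters 1 and 2, and 7 of 10 were higher in dKO in litter 3. The median difference in these 3 litters was 0.09, 0.09 and 0.12. Of the p53 target genes, *Cdkn1a*, *Ccng1* and *Eda2r* kept their direction in each litter that holds cKO mice, and *Mdm2* did not. For *Cdkn1a* and *Eda2r* no other direction was possible, since their cKO mice overlapped with neither ctrl nor dKO. The same holds for *Ccng1* in litter 4, where F3 is the only cKO mouse. These targets were at low counts in ctrl. *Eda2r* was at 7.00 CPM in ctrl mouse T3 (3 counts, 95% Poisson interval 1.44 to 20.5 CPM) and at 7.50 CPM in cKO mouse F3, a gap smaller than counting error. *Cdkn1a* had 0 counts in ctrl mice 2, T3 and T5. *Cdkn1a* was higher in cKO by 2.54 and 1.504 than in ctrl littermates of litters 1 and 2, and by 1.82 than in dKO littermates of litter 4. *Ccng1* was higher by 1.57, 0.46 and 1.10 in the same order, and *Eda2r* by 2.64, 3.89 and 2.92. *Mdm2* was at 0.17, 0.07 and −0.08.

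The genes differed in the spread between mice of one group relative to counting error. The variance within groups, divided by the variance that counting alone gives, was 1.71 for *Usp28*, 1.89 for *Atm*, 2.04 for *Casp2* and 2.12 for *Trp53bp1*. It was 2.77 for *Trp53*, and 3.34 to 4.12 for *Pidd1*, *Chek2*, *Cradd* and *Mdm4*. *Plk4* was highest, at 6.41. The median over 5651 genes with 10 or more counts in every mouse was 2.75. Of the members that meet this minimum, *Cradd* and *Mdm4* lay above the median, and *Usp28*, *Atm*, *Casp2* and *Trp53bp1* below it. *Trp53*, *Pidd1*, *Plk4* and *Chek2* do not meet the minimum, so the median is not a like comparison for them. At the same relative spread of levels this ratio grows with the counts, so it does not rank how far levels vary. It also holds differences of batch and litter within a group, and for *Plk4* it includes dKO mouse T2 with 2 counts.

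**Figure D4:**
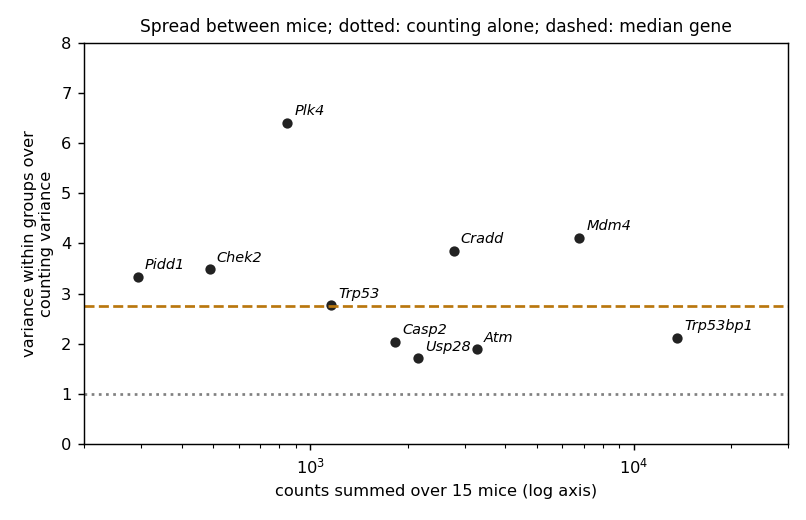
Variance within groups over counting variance (vertical axis, no unit) against the counts summed over 15 mice (log axis) for the 10 genes; the dotted line is counting error alone and the dashed line the median of 5651 genes. *Plk4* lies highest at 6.41 and *Usp28* lowest at 1.71. *Trp53*, *Pidd1*, *Plk4* and *Chek2* had fewer than 10 counts in some mice and are outside the genes that give the median.

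Levels can be compared between genes only per length, and here the length to use is uncertain. Protein-coding genes that lie wholly inside another gene of the same strand, between its exons, were at 0 in 248 of 249 cases (99.6%), against 27.4% of genes inside a gene of the opposite strand and 27.8% of genes that overlap no other. The counts thus behave as if reads had been assigned over whole gene spans, introns included, with strand used, which the sources used here do not state. *Sox2*, inside *Sox2ot*, is one such gene. Per kb of gene span, *Trp53bp1* was highest in ctrl at 3.97 ± 0.21 CPM (SD, n = 7), followed by *Trp53* at 2.65 ± 0.92, *Casp2* at 2.47 ± 0.53 and *Mdm4* at 2.22 ± 0.27. These 4 overlapped, each with its neighbour, between ctrl mice. *Plk4* (1.22 ± 0.50), *Pidd1* (1.12 ± 0.81), *Usp28* (0.965 ± 0.18) and *Atm* (0.773 ± 0.091) followed with overlapping ranges, and *Cradd* (0.453 ± 0.086) and *Chek2* (0.31 ± 0.12) were lowest. Only *Atm* and *Cradd* were neighbours in this order whose ranges over ctrl mice did not overlap. Per kb of exons, *Trp53bp1* was again highest at 21.9 ± 1.2 CPM, *Cradd* was next at 14.2 ± 2.7, and *Pidd1* was lowest at 1.47 ± 1.1. *Cradd*, whose span is 149 kb with 4.76 kb of exons, thus moved from the ninth place to the second.

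Another 32 genes of the pathway were taken from a list of p53 turnover factors, DNA damage signalling genes and genes of PIDDosome docking and centriole duplication. Of these, 0 were called in each comparison by the likelihood ratio test of edgeR, against at most 0.16% of all genes. In the order used above, 2, 1 and 1 had an unadjusted p below 0.05. That is 6.25%, 3.125% and 3.125%, against 10.2%, 6.88% and 6.62% of the genes with 10 or more counts. The median log fold changes were −0.00, −0.01 and 0.06. *Rpl5*, a ribosomal protein that restrains MDM2, had the smallest p in cKO versus ctrl, with a log fold change of −0.31 (SE 0.13, FDR 0.827) and means of 87.6 CPM in ctrl and 69.9 CPM in cKO. In dKO versus ctrl the smallest p were those of *Cenpj*, a centriole assembly factor, at 0.46 (SE 0.22, FDR 1), and *Prkdc*, the catalytic subunit of DNA-PK, at −0.26 (SE 0.16, FDR 1). In cKO versus dKO, *H2afx*, which encodes the histone that is phosphorylated at double strand breaks, was at −0.41 (SE 0.23, FDR 1). *Cdkn2a*, which encodes ARF and p16, had 4 counts in all 15 mice and 0 in cKO, too few for a fold change. It was nevertheless among the 2 smallest p in both comparisons with cKO, and is among the genes counted above as below 0.05 there. *Atrip* and *Rnf8* were listed at 0 in every mouse, so they could not be called.

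For 5 of the 6 members with 10 or more counts in every mouse, the genes with the most similar profile were found by Euclidean distance over 15 mice, on log2 CPM scaled to mean 0 and SD 1. For *Trp53bp1* these were *Ube2f*, *Tubgcp2* and *Gnai3*, and for *Usp28* *Thada*, *Ptdss2* and *Stard3nl*. *Mdm4* was closest to *Tbl1x*, *Fkbp8* and *Smg5*, and *Casp2* to *Bcl11a*, *Zkscan1* and *Fads1*. *Cradd* was closest to *Srcin1*, *Plxna3* and *Ptprs*. The distances were 1.88 to 2.55, where the median over 5650 genes was 5.22 to 5.83. With this many genes and 15 mice of unequal depth, they are given as a description only.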

How the data were processed

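The authors deposited raw counts, whole numbers of reads that remained after UMI deduplication, for each gene in each library. Per the study's methods and the submitters' processing notes, reads were trimmed with cutadapt 1.13, aligned to mm10 with STAR 2.5.2a, deduplicated with UMI-tools 0.5.3 and counted with HTSeq 0.6.1p1 in intersection-nonempty mode. The annotation release, counting feature and strand setting are not given in the sources used here. The 5 summary lines per file were left out. Identifiers were matched to GENCODE GRCm38 for 51719 of 51912 genes, and coordinates are counted from 1.

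Groups, litters and batches came from the labels. Libraries S2 and S2b were summed as 1 mouse. They differed by close to sampling noise (chi-square per degree of freedom 1.14, against 3.56 to 27.4 for other pairs of cKO libraries). The replicates are separate mice, some of them littermates. Comparisons were fitted separately, each with the mice of its pair of groups only, in R 4.3.3 with edgeR 4.0.16 (TMM, estimateDisp, glmFit, glmLRT) without covariates over all listed genes, with Benjamini-Hochberg FDR. Intervals are 1.96 SE of the fitted log fold change. Ratios, and the CPM of each member as a second description without adjustment, were tested with exact permutation tests over mice in scipy 1.17.1. CPM were TMM-scaled over 15 mice, and log2 CPM used a prior count of 2. The fit was tested on simulated data.

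The members and all lists were chosen with earlier results of these data known. Named genes were the 10 members, *Knl1*, the 2 genes of the pathway list with the smallest p in each comparison, the 3 nearest profiles and 4 p53 targets. The nearest profiles of *Atm* are not reported here. The markers called at FDR 0.05 were also named, after their values were seen. Sequences are from RefSeq (GRCm38.p6), and all 10 members were matched. Alternatives were the quasi-likelihood test, DESeq2 1.42.0, RLE factors, filterByExpr, a fit of 3 groups, batch or litter as a covariate, wild-type ctrl mice only, 1 batch only, no mice under 1000000 counts, library S2 alone, a prior count of 0.5 or no TMM for the ratio, and each mouse left out. Leaving out litter 4 was added after seeing the data. ERCC spike-ins were not analysed here. Python 3.11.15 and matplotlib 3.10.9 drew the figures.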

Additional observations from a re-analysis of the deposited data

Results flagged for a closer look

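Of 33 groups of mice tested for a value far from the others, 2 had one, and chance gives about 1 in 20. *Cradd* in dKO mouse T2 was at 81.2 CPM, and the gap to the next dKO mouse was 0.845 of the whole range, above the limit of 0.829 for 4 values. T2 had 49 counts of *Cradd*. The log2 ratio of *Mdm2* to *Mdm4* in ctrl mouse T5 was −0.54, with a gap of 0.626 of the range of ctrl, above the limit of 0.568 for 7 values. In T5 the ratio rests on 39 and 57 counts. Both mice were among those with under 1000000 counts in total.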

How the results depend on the processing

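No member was called in any comparison under any alternative run. Over the alternatives, the smallest FDR of a member was 0.788 in cKO versus ctrl, 0.786 in dKO versus ctrl and 0.927 in cKO versus dKO, and the smallest unadjusted p were 0.056, 0.0273 and 0.0315. The log fold changes of single members changed sign in 40 of 220, 41 of 219 and 40 of 190 values, and their medians lay between −0.11 and 0.07, −0.20 and 0.15, and −0.10 and 0.30. The number of members with an interval within 2-fold fell to 6 in dKO versus ctrl with litter as a covariate. When each mouse was left out, it was 10, 7 to 10, and 7 to 10, the lowest without dKO mouse T8 in both. *Pidd1* could not be fitted in dKO versus ctrl under filterByExpr, which removed it. The difference in the ratio of *Mdm2* to *Mdm4* lay between −0.0175 and 0.0966, −0.0617 and 0.0639, and 0.0049 and 0.0791 with each mouse left out.

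The number of all genes called varied with the processing. In cKO versus ctrl it was 83, and 352 by the quasi-likelihood test, 138 by DESeq2, 138 under filterByExpr, 49 in a fit of 3 groups, 16 with wild-type ctrl mice only, 13 in batch 1 alone and 52 without mice under 1000000 counts. It was 17 to 373 with each mouse left out, lowest without cKO mouse 5 and highest without S2, and 45, 48, 24 and 33 without T4, T5, 7 and F3. In dKO versus ctrl it was 26, and in the same order 113, 8, 14, 14 and 17 by the first 5 of these, 17 with batch and 4 with litter as a covariate, and 0 without litter 4. It was 17 to 59 with each mouse left out, highest without T8 and lowest without F7, and 42 without T2. In cKO versus dKO it was 27, and 184 by the quasi-likelihood test, 7 by DESeq2, 14 under filterByExpr, 14 in a fit of 3 groups, 3 with batch as a covariate, 1 in batch 3 alone, 62 without mice under 1000000 counts and 72 without litter 4. It was 6 to 179 with each mouse left out, lowest without mouse 7 and highest without F1, and 7, 12, 62, 79 and 14 without 5, S2, T2, T8 and F7. The cause of these changes was not tested, except that fewer mice or genes entered some fits. The groups share no replicate numbers in the labels, so mice were not paired by number, and litter, which does hold mice of different groups, was used as a covariate. In those fits only the litters with mice of both groups compared inform the difference.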
